A study of Mus musculus with 28 samples.

Results

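Described here are 10 heat shock genes in mouse macrophages that were grown in culture from bone marrow cells (bone marrow derived macrophages). They are Hspa1a, Hspa1b, Hsph1, Dnajb1, Hsp90aa1, Hspb1, Hspe1, Hspd1, Hspa8 and Bag3, 10 of the 55487 gene IDs in each library and 10 of the 13631 genes that passed the filter of at least 1 TPM in at least 4 libraries. TPM is a gene's share of the transcripts of a library, corrected for gene length and scaled to a fixed total, so levels can be set side by side between genes. The genes were chosen by their TPM in the 7 groups. Their differences between those groups are therefore given as a description, with no test. Tests are given only for other genes in comparisons of the same groups, and for a contrast between dyes that the choice had not used. The lists of other genes were made with earlier results of these data known, so their p-values are not independent of those results.

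RNA was sequenced from 28 libraries, 4 in each of 7 groups, and all macrophages were labelled wild-type. The M0 group had no cytokine. Of the other groups, 3 were cultured for 48 h with IFN-γ at 50 ng/mL and 3 for 48 h with IL-10 at 50 ng/mL. Within each cytokine the groups were Treg-phagocytic (macrophages sorted for uptake of killed regulatory T cells), Tconv-phagocytic (sorted for uptake of killed conventional CD4 T cells) and non-phagocytic (neither taken up). The labels name ATP or NAD as the agent that killed the T cells, and a fluorescent antibody to CD4 as their mark. The M0 labels name no T cells and no uptake status, so in a comparison with M0 the cytokine, the co-culture and the sort cannot be told apart. The labels do not say whether replicates came from separate cultures or animals, so the p-values given measure only the spread between these libraries, which may be technical.

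Heat shock proteins are chaperones that hold unfolded proteins, help them fold and keep them from clumping. Many of their genes are switched on together by the transcription factor HSF1, which is released when misfolded protein accumulates and then binds alternating GAA and TTC units in their promoters. The HSP70 proteins (HSPA1A, HSPA1B and the constitutive HSPA8) work in cycles of ATP hydrolysis that J-domain proteins such as DNAJB1 start and that nucleotide exchange factors such as HSPH1 and BAG3 end. HSP90 (HSP90AA1 is its inducible cytosolic form) finishes the folding of kinases and receptors, HSPB1 is a small chaperone that needs no ATP, and HSPD1 with its lid HSPE1 forms the folding chamber of mitochondria. In macrophages HSP70 and HSP90 also handle peptides for presentation and act on inflammatory signalling.

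The upstream sequences are shown because the genes with the widest range, Hspa1a and Hspa1b, are near-copies, and because Hspe1 and Hspd1, which went apart, start beside each other. Sequences are from RefSeq on GRCm38.p6, whose table held 8 of the 10 genes; Hspa8 and Hsp90aa1 had no entry. Capitals mark each match to GAANNTTC or TTCNNGAA, the paired heat shock unit, searched on both strands (each letter string is its own reverse complement) with overlapping matches kept. The windows are the 250 bases before each RefSeq start of a gene, printed 5′ to 3′ on the gene's strand. A RefSeq start can lie within the gene's annotated span in GENCODE. Hspa1a is at chr17:34972157-34972406 and Hspa1b at chr17:34959239-34959488, both on the minus strand, and Hspb1 at chr5:135887669-135887918 on the plus strand.
Hspa1a: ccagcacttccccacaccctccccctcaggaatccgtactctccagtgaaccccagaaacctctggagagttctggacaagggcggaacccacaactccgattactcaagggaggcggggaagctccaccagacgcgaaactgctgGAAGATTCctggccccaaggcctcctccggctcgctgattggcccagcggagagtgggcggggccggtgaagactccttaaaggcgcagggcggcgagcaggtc
Hspa1b: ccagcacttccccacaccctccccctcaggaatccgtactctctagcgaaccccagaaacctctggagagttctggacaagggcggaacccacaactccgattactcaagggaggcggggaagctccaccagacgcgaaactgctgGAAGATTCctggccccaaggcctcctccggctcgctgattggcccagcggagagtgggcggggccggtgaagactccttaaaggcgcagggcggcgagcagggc
Hspb1: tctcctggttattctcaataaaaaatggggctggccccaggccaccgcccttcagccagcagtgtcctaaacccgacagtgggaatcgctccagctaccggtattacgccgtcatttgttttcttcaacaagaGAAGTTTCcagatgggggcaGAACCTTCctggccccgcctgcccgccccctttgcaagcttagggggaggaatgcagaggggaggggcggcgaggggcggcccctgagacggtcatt

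The Hspa1a and Hspa1b windows differed at 3 of 250 bases, C44T, T47C and T249G (the Hspa1a base, its position counted from 1 at the first printed base, then the Hspa1b base). Each held 1 match, whose first base lay 104 bases before the start. Hspb1, the least abundant of the 10 genes, held 2 matches.

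For Hspe1, Hspd1 and Hsph1 only 30 bases around the matches are shown, since annotated exons reach into these windows. The Hspe1 and Hspd1 sites are the same 30 bases, chr1:55088053-55088082, read on the plus strand for Hspe1 and on the minus strand for Hspd1. The Hsph1 site is chr5:149636351-149636380 on the minus strand.
Hspe1: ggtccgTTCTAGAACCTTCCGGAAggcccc
Hspd1: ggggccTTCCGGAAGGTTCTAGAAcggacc
Hsph1: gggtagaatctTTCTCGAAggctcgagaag

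The site shared by the Hspe1 and Hspd1 windows held 3 overlapping matches in 18 bases. It lay before the annotated start of Hspe1 (chr1:55088132) and within the annotated span of Hspd1 (chr1:55077835-55088243). The annotated starts of these genes lie 111 bases apart on opposite strands. The other Hspd1 window, before that annotated Hspd1 start (chr1:55088244-55088493), held 0 matches. The Hsph1 match also lay within the annotated span of its gene (chr5:149614287-149636376). For Dnajb1, the window chr8:83608298-83608547 lay within the annotated span of that gene (chr8:83608193-83612653). At least 1 match was present in 6 of the 8 genes. By window it was present in 7 of their 11 windows, and in 12.8% of all 32851 windows in the table. At least 3 units in a row (GAANNTTCNNGAA or TTCNNGAANNTTC) were found for Hspe1 and Hspd1 (2 of the 11 windows), and in 0.466% of all windows. Dnajb1 and Bag3 held no match, which says only that these letters are not in the windows searched. A match is a run of letters and not a measured binding site.

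Values differed in reliability between groups and genes. Between 16942 and 18457 gene IDs had a value above 0 in the M0 and IL-10 libraries. Under IFN-γ there were fewer, 15376 to 15723 without uptake, 15662 to 16295 after Tconv uptake and 14148 to 15159 after Treg uptake, so the IFN-γ Treg-phagocytic libraries had the fewest of all, and replicates of a group correlated less under IFN-γ (Pearson's r 0.950 to 0.965 over genes) than elsewhere (0.987 to 0.993). The 10 macrophage markers were present in every library, at a summed 16900 to 21700 TPM. T cell markers were also present, and all 12 were above 0 in every library. They were at a summed 352 to 638 TPM in the IFN-γ groups, 65.9 to 160 TPM in the IL-10 groups and 48.6 to 113 TPM in M0. Which cells this RNA came from was not tested. The summed Treg markers were 56.5 to 96.0 TPM in the IFN-γ groups, against 5.98 to 26.8 TPM in the rest. Stromal markers were at a summed 3.09 to 11.5 TPM under IFN-γ and 116 to 135 TPM in M0, and under IL-10 at 28.4 to 32.3 TPM after Treg uptake, 83 to 87.6 TPM without uptake and 151 to 164 TPM after Tconv uptake. The B cell markers were at a summed 1.34 to 14.6 TPM. The 6 neutrophil markers were at a summed 17.1 to 68 TPM. Among them Ly6g was listed at 0 in all IFN-γ and all IL-10 non-phagocytic libraries. The part of other cells, or of the lower detection, in the IFN-γ differences given here was not tested. In bulk RNA, fewer cells with a transcript and less of it per cell cannot be told apart.

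Reads of several of these genes could be assigned to near-identical sequences. In GENCODE vM21, 62.3% of the 50-base stretches of the Hspa1b transcript were also in Hspa1a, and 58.8% of those of Hspa1a were in Hspa1b. The shares found in any other gene, mostly pseudogenes, were 73.2% for Hspa8, 58.5% for Hsp90aa1, 51.6% for Hspb1, 44.8% for Hspd1 and 36.1% for Hspe1, and 0.4% or less for Hsph1, Dnajb1 and Bag3. The levels of the first 5 and the split between Hspa1a and Hspa1b are therefore uncertain.

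The stress-inducible HSP70 genes spanned the widest range. Hspa1a (chr17:34969190-34972156 on GRCm38) was at 13.1, 8.71, 9.9 and 7.83 TPM in the 4 M0 libraries. In IFN-γ macrophages it was at 396, 401, 293 and 369 TPM without uptake, at 358, 589, 485 and 462 TPM after Tconv uptake and at 48, 111, 77 and 112 TPM after Treg uptake. In IL-10 macrophages it stayed between 9.26 and 17.5 TPM in all 12 libraries. Every IFN-γ library was thus above every M0 and IL-10 library, and the 4 IFN-γ Treg-phagocytic libraries were below the other 8 IFN-γ libraries. The mean was 36.9 times that of M0 in IFN-γ non-phagocytic macrophages and 8.79 times in IFN-γ Treg-phagocytic ones, 364 ± 50 and 86.9 ± 30.6 TPM (SD, n = 4) against 9.88 ± 2.31 TPM (SD, n = 4).

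Hspa1b (chr17:34956436-34959238), 12918 bases away, followed the same order. Its M0 values were 16.3, 8.14, 11.4 and 8.07 TPM. Under IFN-γ it was at 516, 549, 409 and 480 TPM without uptake, at 508, 789, 707 and 640 TPM after Tconv uptake and at 70.3, 157, 108 and 165 TPM after Treg uptake. The Treg-phagocytic mean of 125 ± 44.5 TPM (SD, n = 4) was 5.28 times below the Tconv-phagocytic mean of 661 ± 119 TPM (SD, n = 4), a difference of -2.33 (SE 0.279) on the log2 scale of scaled TPM plus 1. For Hspa1a that difference was -2.36 (SE 0.285).

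Under IL-10 the Hspa1 genes went the other way at a far lower level. Hspa1b was at 16.5, 19.6, 17.9 and 21.3 TPM after Treg uptake, above the 10.8 to 16.01 TPM after Tconv uptake and the 9.11 to 12.8 TPM without uptake. The log2 difference between Treg and Tconv uptake was 0.46 (SE 0.116), and the groups did not overlap. The summed T cell markers had the same order of groups, at 133 to 160 TPM after Treg uptake, 88.4 to 120 TPM after Tconv uptake and 65.9 to 74.2 TPM without uptake. The Treg markers were at 21.3 to 26.8, 14.3 to 17.6 and 11.9 to 14.4 TPM in that order. Under IFN-γ the summed T cell markers were at 426 to 638 TPM after Treg uptake and 403 to 524 TPM after Tconv uptake. Without uptake they were at 352 to 547 TPM. These IFN-γ ranges overlapped, while the Hspa1 genes were lowest there after Treg uptake. The part of T cell RNA in the Hspa1 differences was not tested. Under IL-10, Hspa1a averaged 15.7 ± 2.02 TPM (SD, n = 4) after Treg uptake and 11.6 ± 1.69 TPM (SD, n = 4) after Tconv uptake. The libraries overlapped, with a log2 difference of 0.41 (SE 0.119). In order of mean level both genes ran IFN-γ Tconv, IFN-γ non-phagocytic, IFN-γ Treg and then IL-10 Treg; of these neighbours only the first pair overlapped.

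**Figure D1:**
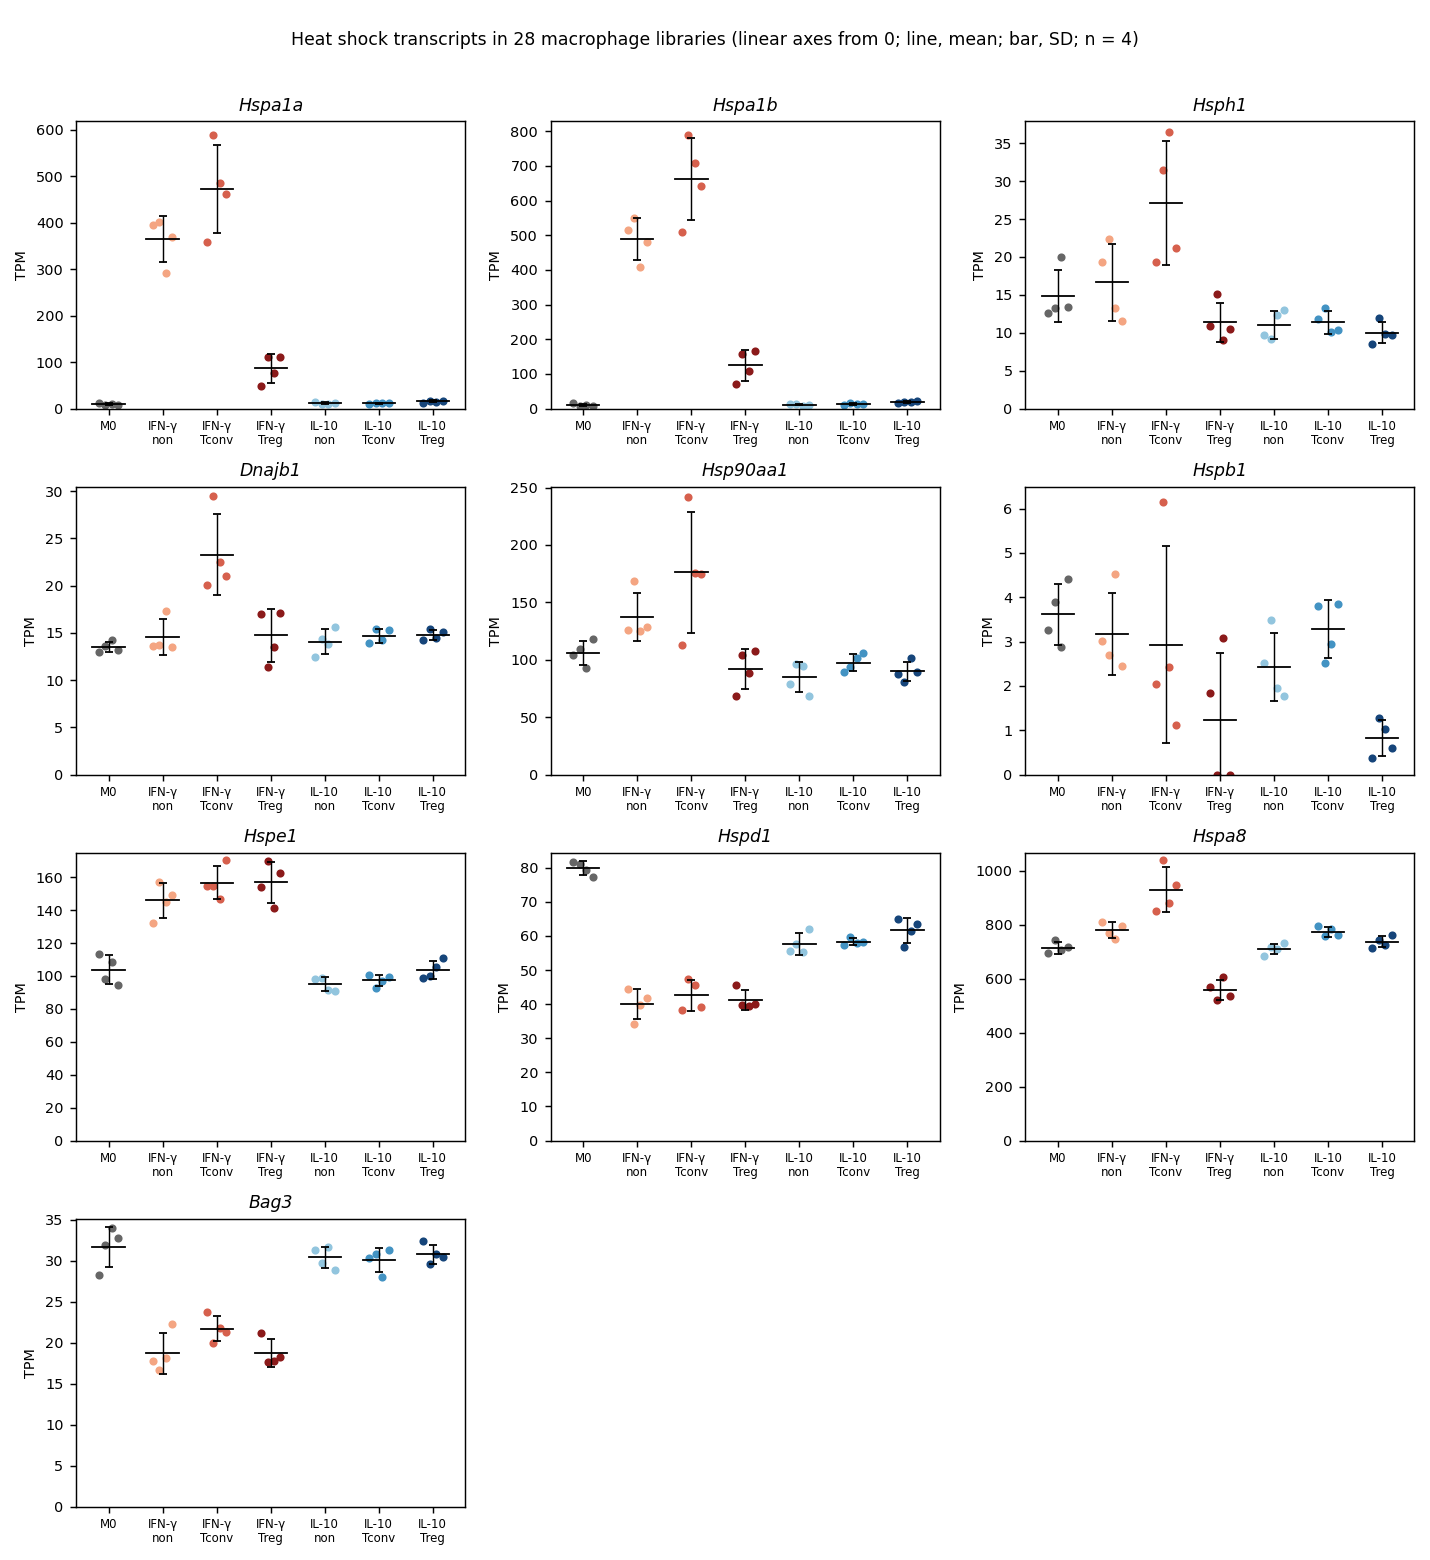
TPM of the 10 heat shock genes (y axes, linear from 0) in each of the 28 libraries, by group on the x axis (non, non-phagocytic); points are libraries, the line is the mean and the bar the SD (n = 4). Hspa1a and Hspa1b lie under 22 TPM in all M0 and IL-10 libraries and between 48 and 789 TPM in the IFN-γ libraries, lowest there after Treg uptake, while Hspe1 is high and Hspd1 and Bag3 are low in all IFN-γ groups.

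Hspa8, the constitutive HSP70 of the cytosol, had the highest mean of the 10 genes in every group and a narrower range than the inducible pair. It was at 694, 743, 705 and 716 TPM in M0. Under IFN-γ its values were 809, 768, 746 and 797 TPM without uptake, 851, 1039, 881 and 947 TPM after Tconv uptake and 569, 521, 605 and 537 TPM after Treg uptake. The Treg-phagocytic libraries were the 4 lowest and the Tconv-phagocytic libraries the 4 highest of all 28 by TPM. On scaled TPM the Treg-phagocytic libraries overlapped the M0, IL-10 non-phagocytic and IL-10 Treg-phagocytic ones, and remained below the other IFN-γ groups. Means were 558 ± 37.2 and 930 ± 83.3 TPM (SD, n = 4), a difference of -0.61 (SE 0.068) in log2 scaled TPM. Under IL-10, Hspa8 averaged 711 ± 19.6, 775 ± 18.6 and 737 ± 20.4 TPM (SD, n = 4) for non-phagocytic, Tconv- and Treg-phagocytic macrophages, with the Tconv group above the non-phagocytic group in every library.

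The partners of HSP70 were lower in level and differed among themselves. Hsph1, an HSP110 protein that exchanges nucleotide on HSP70, was at 19.3, 31.4, 36.5 and 21.2 TPM in IFN-γ Tconv-phagocytic and at 10.9, 15.1, 9.01 and 10.6 TPM in IFN-γ Treg-phagocytic libraries. These groups did not overlap, with a log2 difference of -1.05 (SE 0.23). Its M0 mean of 14.8 ± 3.43 TPM (SD, n = 4) lay between them, and the IFN-γ non-phagocytic libraries, at 11.6 to 22.4 TPM, overlapped both M0 and the Treg-phagocytic group.

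Dnajb1, the J-domain protein that starts the HSP70 cycle, stood out in 1 group. It was at 20.1, 29.5, 22.5 and 21.0 TPM in IFN-γ Tconv-phagocytic macrophages and between 11.4 and 17.4 TPM in all other 24 libraries. The mean of 23.3 ± 4.26 TPM (SD, n = 4) compared with 14.5 ± 1.89 TPM (SD, n = 4) without uptake, a log2 difference of 0.59 (SE 0.14), and with 14.8 ± 2.81 TPM (SD, n = 4) after Treg uptake. Unlike Hspa1a and Hspa1b, its mean in IFN-γ non-phagocytic macrophages was 1.08 times that of M0, with libraries that overlapped by TPM and not on scaled TPM.

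Bag3, which links HSP70 to autophagy, had a different pattern. It was at 28.3, 31.9, 34.0 and 32.7 TPM in M0 and between 28 and 32.3 TPM in all 12 IL-10 libraries. In IFN-γ macrophages it was at 17.7, 16.6, 18.1 and 22.3 TPM without uptake, 23.7, 20.0, 21.8 and 21.3 TPM after Tconv uptake and 21.2, 17.7, 17.7 and 18.3 TPM after Treg uptake. All 12 IFN-γ libraries were below all 16 others by TPM, and the 3 IFN-γ groups overlapped. On scaled TPM 1 Tconv-phagocytic library was above the lowest M0 library. The scaled log2 difference of IFN-γ non-phagocytic macrophages from M0 was -0.46 (SE 0.105), so this member of the heat shock set was low where Hspa1a was high.

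Hsp90aa1, the inducible cytosolic HSP90, was at 104, 109, 92.6 and 118 TPM in M0. Under IFN-γ it was at 126, 169, 125 and 129 TPM without uptake, 113, 242, 176 and 175 TPM after Tconv uptake and 68.6, 104, 88.4 and 107 TPM after Treg uptake. The Treg-phagocytic libraries were below both other IFN-γ groups, with log2 differences of -0.78 (SE 0.234) from Tconv and -0.50 (SE 0.169) from non-phagocytic macrophages. On scaled TPM, a measure added after the data were seen, the first of these pairs of groups overlapped. The constitutive form Hsp90ab1 was at 555 ± 13.6 TPM in M0 and 407 ± 27.3 to 514 ± 34.4 TPM in the IFN-γ groups (SD, n = 4). The ratio of Hsp90aa1 to Hsp90ab1 was 0.190 ± 0.0157 in M0, 0.302 ± 0.0542, 0.343 ± 0.105 and 0.229 ± 0.0571 in IFN-γ non-phagocytic, Tconv- and Treg-phagocytic macrophages (SD, n = 4). Under IL-10 it was 0.190 ± 0.0302, 0.224 ± 0.0164 and 0.203 ± 0.0221 in the same order (SD, n = 4). Hsp90aa1 itself averaged 84.8 ± 13.2, 97.4 ± 7.49 and 89.8 ± 8.53 TPM in those IL-10 groups (SD, n = 4).

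Hspb1, the small heat shock protein HSP25/27, was near the bottom of the measured range and did not follow Hspa1a. It was at 3.27, 3.9, 2.87 and 4.41 TPM in M0, 2.44 to 4.53 TPM in IFN-γ non-phagocytic and 1.11 to 6.16 TPM in IFN-γ Tconv-phagocytic libraries. In IFN-γ Treg-phagocytic libraries it was at 1.84 and 3.09 TPM and listed at 0 in the other 2. Under IL-10 it was at 0.38, 1.27, 1.04 and 0.59 TPM after Treg uptake, below the 2.52 to 3.86 TPM after Tconv uptake and the 1.77 to 3.48 TPM without uptake. The log2 difference between Treg and Tconv uptake under IL-10 was -1.22 (SE 0.178), and it moved to -1.97 with a pseudocount of 0.1 and to -0.49 with 5. The summed stromal markers had the same order of IL-10 groups (28.4 to 32.3, 83 to 87.6 and 151 to 164 TPM after Treg uptake, without uptake and after Tconv uptake). In IFN-γ non-phagocytic, Tconv- and Treg-phagocytic libraries these markers were at 7.66 to 11.5, 3.62 to 7.81 and 3.09 to 7.59 TPM. Mean Hspb1 there was 3.17, 2.93 and 1.23 TPM, against 0.82 TPM after Treg uptake under IL-10. The part of stromal RNA in the Hspb1 difference was not tested.

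The paired mitochondrial genes went apart. Hspe1, the lid of the chamber (chr1:55088132-55091307), was at 114, 98.4, 109 and 94.4 TPM in M0, at 91.0 to 111 TPM in the IL-10 libraries and at 132 to 171 TPM in all 12 IFN-γ libraries. Hspd1, the chamber itself (chr1:55077835-55088243), was at 81.8, 81.1, 79.4 and 77.4 TPM in M0, 55.3 to 65.0 TPM in the IL-10 libraries and 34.2 to 47.5 TPM in the IFN-γ libraries. Neither gene's IFN-γ libraries overlapped the others by TPM; on scaled TPM those of Hspd1 overlapped the IL-10 non-phagocytic libraries. The scaled log2 differences of IFN-γ non-phagocytic macrophages from M0 were 0.77 (SE 0.07) for Hspe1 and -0.70 (SE 0.08) for Hspd1. A correction for base composition and length lowered that of Hspe1 to 0.38. The 3 IFN-γ groups were close together: Hspe1 averaged 146 ± 10.5, 157 ± 9.94 and 157 ± 12.5 TPM and Hspd1 40.1 ± 4.37, 42.6 ± 4.64 and 41.2 ± 2.97 TPM (SD, n = 4) in non-phagocytic, Tconv- and Treg-phagocytic macrophages, with overlapping libraries.

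Ratios within a library do not depend on its scaling and show these shifts directly. The summed TPM of Hspa1a and Hspa1b was 0.0294 ± 0.0094 times that of Hspa8 in M0 (SD, n = 4). It was 1.09 ± 0.123, 1.22 ± 0.155 and 0.386 ± 0.154 times that of Hspa8 in IFN-γ non-phagocytic, Tconv- and Treg-phagocytic macrophages, and 0.0328 ± 0.00489, 0.0323 ± 0.00555 and 0.0468 ± 0.00433 times under IL-10 in the same order (SD, n = 4). The inducible pair thus made up 1.92% ± 0.582 of the summed TPM of the 10 genes in M0, 42.3% ± 2.6 and 44.9% ± 2.64 in IFN-γ macrophages without uptake and with Tconv uptake, and 18.9% ± 5.73 with Treg uptake (SD, n = 4). The ratio of Hspe1 to Hspd1 was 1.30 ± 0.0943 in M0, 1.65 ± 0.131 to 1.69 ± 0.114 under IL-10 and 3.70 ± 0.673 to 3.83 ± 0.417 under IFN-γ (SD, n = 4).

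Hspa1b exceeded Hspa1a more clearly where both were high. Their ratio was 1.34 ± 0.0471, 1.40 ± 0.0507 and 1.44 ± 0.0365 in the IFN-γ groups, 1.09 ± 0.135 in M0 and 0.986 ± 0.151 to 1.20 ± 0.0501 in the IL-10 groups (SD, n = 4). All 12 IFN-γ libraries, at 1.30 to 1.48, were above all others, at 0.837 to 1.27. This ratio rests on how reads shared by the near-copies were divided.

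**Figure D2:**
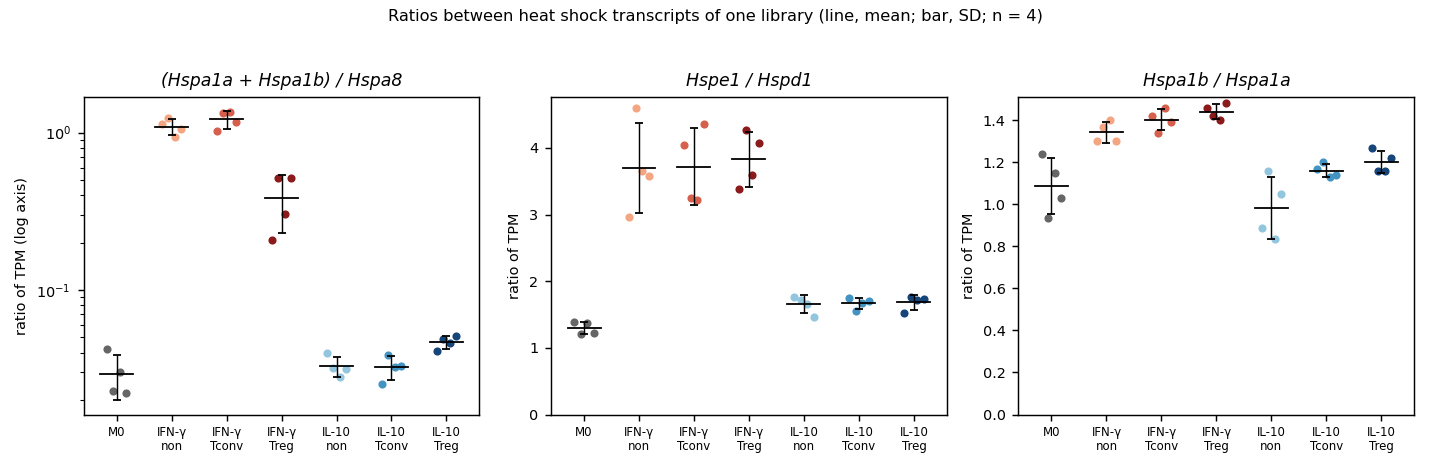
Ratios of TPM within each library, by group (x axis): summed Hspa1a and Hspa1b over Hspa8 (log axis), Hspe1 over Hspd1, and Hspa1b over Hspa1a (linear axes from 0); points are libraries, the line is the mean and the bar the SD (n = 4). Under IFN-γ the first ratio is 1.22 after Tconv and 0.386 after Treg uptake, while the second is 3.70 to 3.83 in all 3 IFN-γ groups.

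Counted together, more of the 10 genes were lower than higher after Treg uptake under IFN-γ. Between IFN-γ Treg- and Tconv-phagocytic macrophages, 6 of the 10 genes were lower without overlap (Hspa1a, Hspa1b, Hsph1, Dnajb1, Hsp90aa1 and Hspa8) and 0 were higher, where 13.7% of all 13631 genes were lower without overlap and 4.01% higher. Their median log2 difference was -0.69, against 0.04 over all genes. Against non-phagocytic macrophages, 4 of 10 were lower (Hspa1a, Hspa1b, Hsp90aa1 and Hspa8) and 0 higher, with 10.6% of all genes lower and 3.9% higher. After Tconv uptake, 2 were higher than without uptake (Dnajb1 and Hspa8) and 0 lower, with 2.55% of all genes higher and 1.12% lower. Since the genes were chosen on these group values, nothing is read from the counts. The 3 comparisons share their libraries.

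Under IL-10 the groups overlapped for most of the genes. Between Treg and Tconv uptake Hspa1b was higher and Hspb1 lower without overlap, where 3.89% of all genes were higher and 4.81% lower. Those were also the only 2 genes apart between Treg uptake and no uptake, with 5.41% of all genes higher and 16.2% lower. On scaled TPM, where no share of all genes was taken, Hspe1 and Hspa8 were higher too. Between Tconv uptake and no uptake Hspa8 was higher, with 3.64% of all genes higher and 13.3% lower. The medians of the 10 log2 differences were 0.02, 0.16 and 0.13 in these comparisons.

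Between cytokines the 10 genes split. In non-phagocytic macrophages 5 were higher under IFN-γ than under IL-10 without overlap (Hspa1a, Hspa1b, Hsp90aa1, Hspe1 and Hspa8) and 2 were lower (Hspd1 and Bag3), with 16% of all genes higher and 38% lower. The same 5 were higher and the same 2 lower than in M0, with 17% of all genes higher and 38.2% lower. On scaled TPM 7 were higher than under IL-10 (Hsph1 and Dnajb1 also) and 6 than in M0 (Dnajb1 also), with the same 2 lower. No share of all genes was taken on scaled TPM, so nothing is read from these scaled counts. IL-10 non-phagocytic macrophages differed from M0 without overlap in Hspd1, which was lower, with 15.9% of all genes higher and 13.1% lower. The medians of the 10 log2 differences were 0.65, 0.41 and -0.10. Because the scaling factors of IFN-γ libraries were lower by 0.302 than those of IL-10 and by 0.288 than those of M0 (log2, non-phagocytic groups), the IFN-γ differences given on the scaled log2 scale are higher by about that amount than those of TPM itself. Without scaling, Hspa8 differed from M0 by 0.13 in place of 0.41 and Dnajb1 by 0.09 in place of 0.36.

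**Figure D3:**
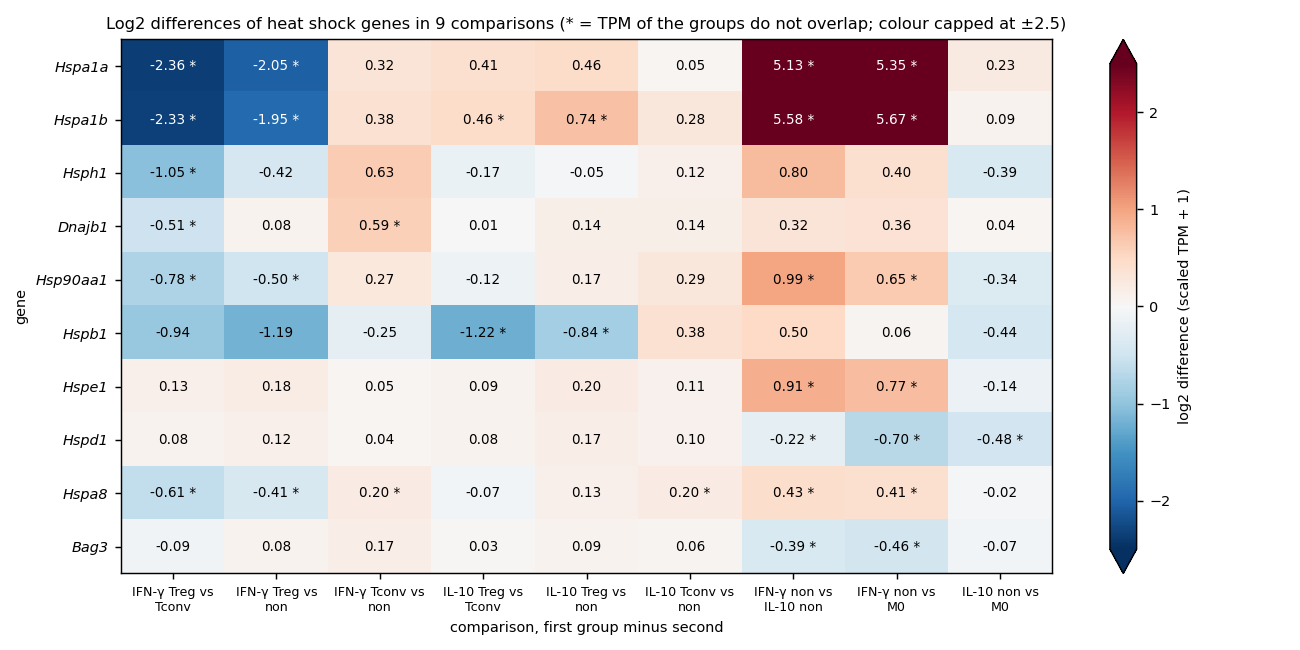
Log2 differences of scaled TPM plus 1 (colour and printed value, capped in colour at ±2.5) of the 10 genes (rows) in 9 comparisons (columns, first group minus second, 4 against 4 libraries; non, non-phagocytic); a star marks groups whose TPM do not overlap. Hspa1a and Hspa1b are at -1.95 to -2.36 in the first 2 columns and at 5.13 to 5.67 where IFN-γ is set against IL-10 or M0, and Hspe1 and Hspd1 have opposite signs under IFN-γ against M0 (0.77 and -0.70).

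Other genes of the chaperone system were tested with limma (4 against 4 libraries, Benjamini-Hochberg adjusted over all 13631 genes, called at an adjusted p under 0.05). Of 113 listed genes in 10 lists, 106 could be tested. In IFN-γ macrophages with Treg against Tconv uptake, 15 rose and 5 fell (18.9% of 106), where 12.7% of all genes were called. The 5 falls were in Dnajc7, Dnaja1, Hsf2, Dnajb14 and Hsp90ab1. Dnajc7, a J-domain protein that binds both HSP70 and HSP90, averaged 72.3 ± 3.67 against 187 ± 27.7 TPM (SD, n = 4) and fell by 1.22 (SE 0.103, adjusted p = 0.00125, limma). Dnaja1, a J-domain partner of cytosolic HSP70, averaged 58.0 ± 5.03 against 113 ± 5.12 TPM (SD, n = 4; log2 difference -0.83, limma adjusted p = 0.000838). Hsf2, a heat shock transcription factor, averaged 8.33 ± 0.841 against 17.2 ± 2.12 TPM (SD, n = 4; -0.85, limma adjusted p = 0.00538). Dnajb14 is a J-domain protein of the ER membrane, and Hsp90ab1 is the constitutive cytosolic HSP90 (-0.21, limma adjusted p = 0.0363, up to 0.107 over its alternatives). Dnajc7, Dnaja1 and Hsf2 kept their calls in every alternative run.

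The rises in that comparison were small and lay mostly in the endoplasmic reticulum (ER), the compartment where secreted proteins fold. Of 19 ER chaperones 8 rose and 0 fell on the scaled values. Hspa5, the ER form of HSP70 known as BiP, averaged 697 ± 61.3 against 601 ± 23 TPM (SD, n = 4; 0.33, limma adjusted p = 0.00833). Sdf2l1, a partner of HSPA5, differed by 0.52 (limma adjusted p = 0.0326), Cct7, a subunit of the cytosolic chaperonin TRiC, by 0.39 (0.016) and Trap1, the mitochondrial HSP90, by 0.38 (0.0243). Without scaling 1 of the 106 genes rose and 9 fell, 1 of the 19 ER chaperones rose, and Hspa5 was not called (limma adjusted p = 0.08). Single libraries also mattered: the count of 20 became 7 without the Tconv library BV421-2 or Ax647-1, 8 without Tconv Ax647-2 and 11 without Treg Ax647-2, BV421-1 or BV421-2. Without any 1 of 7 of the 8 libraries Sdf2l1 was not called, and its adjusted p ran up to 0.101 over its alternatives. Cct7 and Trap1 were not called without Tconv BV421-2 or Ax647-1, and Trap1 also without Treg Ax647-1 or Ax647-2 (adjusted p up to 0.0725 and 0.138 over their alternatives).

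**Figure D4:**
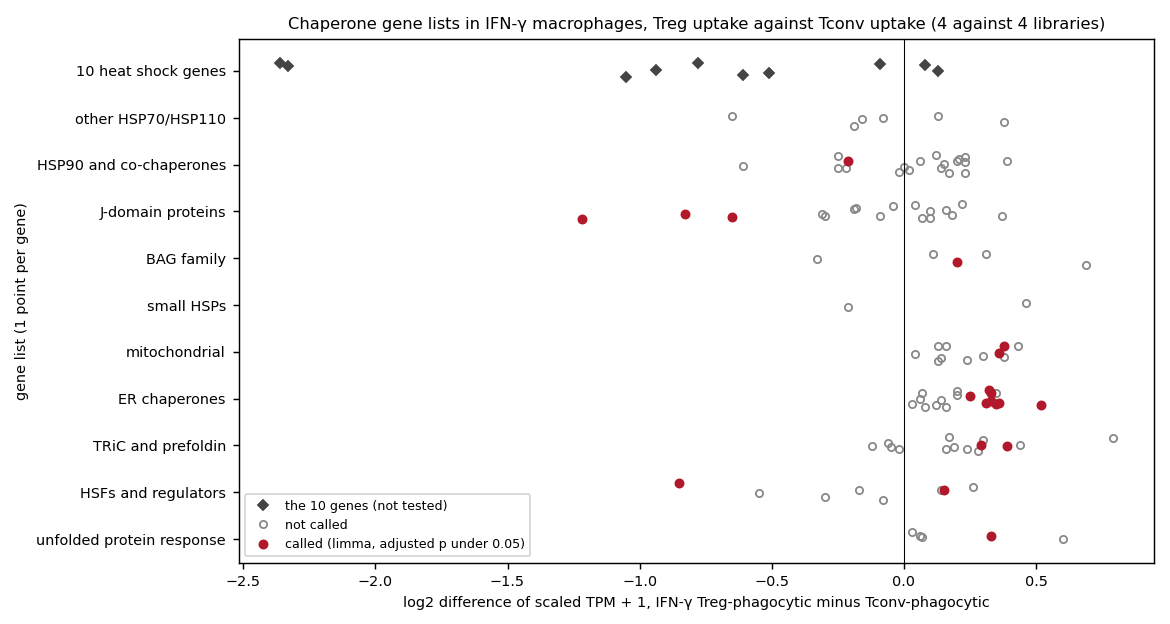
Log2 differences of scaled TPM plus 1 between IFN-γ Treg- and Tconv-phagocytic macrophages (x axis, 4 against 4 libraries), 1 point per gene, by gene list (y axis); filled red points were called by limma, open points were not, and diamonds are the 10 heat shock genes, which were not tested. The 8 called ER chaperones lie right of 0 on this scaled axis (without scaling 1 of all 106 genes rose), and 3 called J-domain genes lie at -0.65 to -1.22.

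Against non-phagocytic IFN-γ macrophages, 8 of the 106 genes rose and 5 fell after Treg uptake (12.3%), where 8.28% of all genes were called. Without scaling 3 rose and 6 fell. Dnajc7 (72.3 ± 3.67 against 162 ± 5.98 TPM, SD, n = 4; -1.08, limma adjusted p = 0.000188), Hsf2 (-0.81, 0.0103) and Dnaja1 (-0.69, 0.00262) again had the largest falls. The largest rises, which were all lost in some alternative, were Grpel1, the nucleotide exchange factor of mitochondrial HSP70 (0.46, 0.0224), Dnajb12, a J-domain protein of the ER membrane (0.44, 0.0484), and Sdf2l1 (0.43, 0.0267). The count of 13 fell to 8 without the non-phagocytic library 2 or 4. With Tconv uptake against no uptake, limma called 0 of the 106 genes, 5 had an unadjusted p under 0.05, and 0.00734% of all genes were called.

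Under IL-10 the other chaperone genes differed little between T cell kinds. With Treg against Tconv uptake limma called 0 of 106, 15 had an unadjusted p under 0.05, and a fit of all 28 libraries with a variance weight per group called 2, where 1.4% of all genes were called. Against no uptake, 6 rose and 7 fell after Treg uptake (11.3% of all genes called) and 5 rose and 5 fell after Tconv uptake (6.02% of all genes called), and without scaling these splits were 2 and 15, and 0 and 13. Trib3, a stress-induced pseudokinase, had the largest fall in both, at 133 ± 3.53 and 149 ± 6.39 against 194 ± 4.85 TPM (SD, n = 4; -0.47 and -0.30, limma adjusted p = 7.78e-05 and 0.00289). Chac1, an enzyme that degrades glutathione, fell by 0.30 after Treg uptake (limma adjusted p = 0.0134). It was not called with all 28 libraries in 1 model (limma adjusted p = 0.334). Among the largest rises, Hsbp1, an HSF1-binding protein, rose by 0.25 after Treg uptake (limma adjusted p = 0.0013). Manf, a secreted ER stress protein, rose by 0.19 after Treg uptake (0.0114). Calr, an ER lectin chaperone, rose by 0.18 after Treg (0.00519) and 0.15 after Tconv uptake (0.00872). Manf was not called without scaling or with all 28 libraries in 1 model (limma adjusted p up to 0.0556). Calr after Tconv uptake was not called without scaling (limma adjusted p = 0.098). The count of 10 after Tconv uptake became 4 without the non-phagocytic library 3, and 6 without non-phagocytic 4, Tconv BV421-2 or Tconv Ax647-1.

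Many more of the chaperone genes were called between cytokines. In non-phagocytic macrophages, 28 of the 106 rose and 33 fell under IFN-γ against IL-10 (57.5%, with 51.1% of all genes called), and 28 rose and 37 fell against M0 (61.3%, with 53% of all genes called). Without scaling these splits were 15 and 58, and 13 and 62. Among regulators of the heat shock response, the largest rises against M0 were those of Dedd2 (28.6 ± 3.81 against 14.7 ± 1.1 TPM, SD, n = 4; 1.18, limma adjusted p = 2.91e-05) and Ier5, which helps activate HSF1 (102 ± 4.52 against 66.8 ± 1.7 TPM; 0.89, 5.7e-07). Hsf1 itself was at 22.7 ± 2.76 against 25.9 ± 0.713 TPM (SD, n = 4; 0.08, limma adjusted p = 0.465), and was not called in any of the 9 comparisons. Sugt1, an HSP90 co-chaperone, rose by 0.88 (4.86e-06).

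More ER and stress-response genes fell than rose in that comparison. Of 19 ER chaperones 11 fell and 3 rose (15 and 0 without scaling), with Hspa5 at 608 ± 8.82 against 1170 ± 31.4 TPM (SD, n = 4; -0.66, limma adjusted p = 3.64e-07). All 5 tested genes of the unfolded protein response were called and 4 fell, among them Trib3 (-1.55, 1.14e-07) and Chac1 (-1.32, 0.000172). Mitochondrial Hspa9, the HSP70 partner of the Hspd1 chamber, averaged 168 ± 6.99 against 315 ± 6.79 TPM (SD, n = 4; -0.61, limma adjusted p = 2.65e-06). Dnajb12 fell by 1.14 (3.87e-06). Against IL-10, the largest rises among genes with a mean of at least 5 TPM in the higher group were in J-domain genes, Dnaja1 by 0.95 (1.76e-05), Dnajc7 by 0.94 (1.77e-07) and Dnajb6, which keeps proteins from aggregating, by 0.90 (1.83e-07). Below that level Fkbp5, an HSP90 co-chaperone, rose by 1.06 (0.00111) at 4.53 ± 1.26 against 2.05 ± 0.358 TPM (SD, n = 4). Dnajc7 thus had 1 of the 3 largest rises at that level under IFN-γ against IL-10 without uptake. It also had the largest fall of the named genes after Treg uptake under IFN-γ.

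IL-10 against M0 gave 14 rises and 20 falls in the 106 genes (32.1%, with 26.6% of all genes called). Fkbp4, an HSP90 co-chaperone of steroid receptors, fell by 0.49 (limma adjusted p = 0.000132) and Hsp90ab1 by 0.33 (1.13e-05). Dedd2 (0.38, 0.00503), the small heat shock gene Hspb6 (0.36, 0.00236) and the ER gene Dnajc3 (0.32, 0.000202) rose. Hspb6 was not called in either fit of all 28 libraries (limma adjusted p up to 0.606). Hspa9 fell by 0.27 (5.42e-05), beside the lower Hspd1 in the same libraries.

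Whether the difference between Treg and Tconv uptake depends on the cytokine was tested over 16 libraries. Of the 106 genes, limma called 16, with 11 more positive and 5 more negative under IFN-γ, where 12.5% of all genes were called. Without scaling 6 were more positive and 10 more negative. The most negative were Dnajc7 (-1.31, SE 0.124, limma adjusted p = 1.15e-05), Hsf2 (-0.96, SE 0.154, 0.000682) and Dnaja1 (-0.89, SE 0.18, 0.00392). For the 10 heat shock genes the same quantity, given with no test, was -2.77 (SE 0.301) for Hspa1a, -2.79 (SE 0.296) for Hspa1b, -0.88 (SE 0.272) for Hsph1, -0.66 (SE 0.235) for Hsp90aa1, -0.53 (SE 0.073) for Hspa8 and -0.52 (SE 0.162) for Dnajb1. It was between -0.12 and 0.29 for Bag3, Hspe1, Hspd1 and Hspb1.

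The dye of the CD4 antibody gave a contrast that the choice of genes had not used. Titles and library names disagree on the dye for all 8 Treg-phagocytic libraries, so both readings were tested over the 16 phagocytic libraries. By the titles, limma called 0 of the 10 heat shock genes and 0 of 13631 genes (0% of all genes called), with 0 of the 10 and 568 of all genes at an unadjusted p under 0.05. The 10 log2 differences, BV421 minus Ax647, lay between -0.07 and 0.26, with adjusted p-values of 0.989 or more. By the library names, 0 genes were called, 565 had an unadjusted p under 0.05, and the 10 differences were -0.15 to 0.13.

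The genes whose levels most resembled the mean of the 10 over the 28 libraries, ranked by Pearson's r among 8721 genes, were Rnf213 (0.957), Pld4 (0.944), Tcirg1 (0.939), Necap1 (0.938) and Parp11 (0.933). All 5 had their highest group mean after Tconv uptake under IFN-γ and a lower one after Treg uptake: Rnf213, a large ubiquitin ligase, averaged 38.2 against 19.4 TPM and Tcirg1, a subunit of the proton pump, 1060 against 527 TPM. The 28 libraries share 7 group levels, so these values describe the groups.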

How the data were processed

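The deposited values are TPM per Ensembl gene ID, written with 2 decimals, per the file headers; no read counts were used, so no interval for counting error is given. The submitters' processing notes name STAR, RSEM and the build mm10, without versions, and the annotation is not given in the sources used here. Per the labels' protocols, the authors made directional libraries from total RNA. Symbols and coordinates are from GENCODE vM21 (GRCm38), which named 55141 of the 55487 IDs and left 346 unnamed; promoters are from RefSeq (GRCm38.p6). Of 28 libraries none was left out, and 0 pairs had identical values.

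TPM were divided by a scaling factor per library (trimmed mean of log2 ratios to the mean profile, 30% of ratios and 5% of levels trimmed at each end), and log2(scaled TPM + 1) was tested with limma 3.58.1 (R 4.3.3, lmFit and eBayes with trend) in the 2 groups compared only, over the 13631 genes that reached 1 TPM in 4 or more libraries. Only these groups were fitted because replicates spread more under IFN-γ. The difference of differences used 4 groups with a variance weight per group, and the dye contrast the 16 phagocytic libraries with the group as a term. A call needs a Benjamini-Hochberg adjusted p below 0.05 over every gene tested, and the fit was tested on simulated data. Standard errors are limma's. Names such as Ax647-1 for phagocytic libraries are the dye and replicate in the title.

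The 10 genes, the lists and the tests were chosen with earlier results of these data known. Named besides the 10 were Hsf1, Hsp90ab1, Hspa5, Hspa9 and Dnaja1, and per comparison up to 3 called chaperone genes with the largest rise and 3 with the largest fall at a mean of at least 5 TPM; the other names complete a short count and were chosen after their values were seen. Not all genes that this rule picked are printed. Ddit3 has more than 1 ID and was left out. Alternatives were other scalings, pseudocounts of 0.1 and 5, filters, a correction for GC content and length, other models, a replicate block and leaving out each library.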

Additional observations from a re-analysis of the deposited data

Results flagged for a closer look

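Of 105 groups of 4 libraries (10 heat shock genes and 5 further chaperone genes in 7 groups), 7 had a library whose gap to the nearest of the others was, as a share of the group's range, above Dixon's 95% limit for 4 values, and chance flags about 1 in 20 groups. All 7 were the highest of their group. Hspa1a was at 14.37 TPM in IL-10 non-phagocytic library 1, against 10.55 to 11.19 TPM in the others. Hsph1 was at 19.94 TPM in M0 library 3, against 12.67 to 13.41 TPM. In IFN-γ non-phagocytic macrophages, Dnajb1 was at 17.37 TPM in library 3, against 13.46 to 13.73 TPM, and Hsp90aa1 at 168.73 TPM in library 2, against 124.81 to 128.82 TPM. Hspd1 was at 45.63 TPM in IFN-γ Treg-phagocytic library Ax647-1, against 39.35 to 39.92 TPM. Hsf1 was at 27.25 TPM in IL-10 non-phagocytic library 1, against 24.32 to 24.8 TPM, and Dnaja1 at 120.81 TPM in IFN-γ Tconv-phagocytic library Ax647-1, against 109.69 to 111.51 TPM.

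The log2 difference between Treg and Tconv uptake differed between IFN-γ and IL-10 for 8 named chaperone genes by limma's test of the difference of differences (IFN-γ minus IL-10, adjusted p). It was -1.31 for Dnajc7 (1.15e-05), -0.96 for Hsf2 (0.000682), -0.89 for Dnaja1 (0.00392) and -0.24 for Hsp90ab1 (0.0115). It was 0.58 for Sdf2l1 (0.00819), 0.43 for Cct7 (0.0109), 0.38 for Trap1 (0.0215) and 0.35 for Hspa5 (0.00224); without scaling Cct7 (0.0555) and Trap1 (0.11) were not called. Hspa1b moved in opposite directions without overlap, a difference that was not tested: Treg against Tconv uptake gave -2.33 under IFN-γ and 0.46 under IL-10, and Treg against no uptake gave -1.95 and 0.74.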

How the results depend on the processing

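Of 90 differences of the 10 genes and 1170 recomputed values, 35 moved by more than 1 SD. The sign changed in 23, for differences of at most 0.089 but for Hspb1 with Tconv uptake against none under IFN-γ (-0.254, and 0.001 without Tconv Ax647-2). Hspb1 in IFN-γ non-phagocytic macrophages against M0 (0.062) was at -0.158 without scaling, and at -0.215 after correction for GC content and length. Of 56 calls of named chaperone genes, 23 were lost in some alternative, 15 of them with a library left out, and 1 result reversed: Hsp90ab1 in IFN-γ non-phagocytic macrophages against M0 was 0.002, and -0.285 without scaling (limma adjusted p = 9.74e-05). TPM keeps no read depth, so how well low levels such as those of Hspb1 were counted is unknown. Non-overlap counts on scaled TPM were added after the data were seen.

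For IFN-γ Treg against Tconv uptake, 20 chaperone genes were called; the count was 10 without scaling, 11 without a filter on low values, 13 with the GC and length correction, 46 with all 28 libraries in 1 model and 7 to 21 with a library left out. Replicate numbers do not pair the libraries (correlations of -0.026 to 0.085 between equal numbers). With a replicate block by library names the count was 11, also 11 with the GC and length correction added, and 10 by titles. In the other comparisons with shared numbers the block moved no count by more than 1.5 times. All 28 libraries in 1 model gave 39 in place of 13 for IFN-γ Treg uptake against none (8 to 12 with a library left out), 7 in place of 13 and 2 in place of 10 for IL-10 Treg and Tconv uptake against none, and 19 in place of 34 for IL-10 against M0. Variance weights per group gave 2 in place of 0 for IL-10 Treg against Tconv uptake and 21 in place of 13 for IL-10 Treg uptake against none. With a library left out, IL-10 Treg against Tconv uptake gave 0 to 1 and IL-10 Tconv uptake against none 4 to 8. The causes of these shifts were not tested. The 4 replicate numbers of phagocytic and non-phagocytic groups are not shared, so no block was fitted there.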
